A study of Mus musculus with 80 samples.

Results

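The interferon response genes examined here are 41 genes chosen by name for their known induction by interferon. A gene was matched to the array through its gene ID, and its brightest probe set was used. Of the 41 genes, 37 had a probe set assigned to that gene alone. Of these, 36 exceeded a filter on low values and were tested among the 8769 genes tested of 12393 genes with a named probe set. The filter required a value above 74.6, the 40th percentile of all values, on at least 10 arrays. Mx2 did not reach it, with values above the filter in 7 tumours. Isg15 was represented only by a probe set shared between several genes, and no named probe set was found for Ddx58, Ifi44 and Xaf1, so the expression of these 4 genes was not analysed here. The tested members comprised 5 of 5 regulatory factors, 2 of 3 sensors, 15 of 19 antiviral effectors, 7 of 7 antigen processing genes, 5 of 5 interferon-inducible GTPases and 2 of 2 chemokines.

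The 80 samples were primary mammary tumours of FVB mice, frozen when the tumour reached its endpoint, and each was hybridised to 1 Affymetrix array. All tumours carried MMTV-Myc, a transgene in which a mammary tumour virus promoter drives Myc chiefly in mammary epithelium. The E2f genes were wild type in 20 tumours, E2F1 was absent (E2F1 null) in 20, E2F2 was absent (E2F2 null) in 20, and the remaining 20 were heterozygous for E2F3 and so retained a normal copy. The wild-type tumours, which served as the reference, therefore also expressed the Myc transgene. Animal age was not given. Tumour titles begin with a number, of which there were 53 (16 among wild-type, 16 among E2F1 null, 11 among E2F2 null and 10 among E2F3 heterozygous tumours), and several tumours can carry the same one. This label number may mark the animal, which the labels do not state, and it entered the tests as a random block. The mammary epithelial markers Krt8, Krt18 and Epcam were above the filter in all 80 tumours.

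Cells answer interferons through receptors that activate Jak kinases and Stat proteins. Type I interferon acts mainly through a complex containing Stat2 and Irf9 at the interferon-stimulated response element (ISRE). Interferon gamma acts mainly through the gamma-activated site (GAS). The genes so induced encode viral RNA sensors, antiviral effectors, the peptide-loading machinery of MHC class I, GTPases that attack pathogen vacuoles, and chemokines that attract T cells. In tumours these genes can be active in cancer cells and in infiltrating cells alike.

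The response elements were visible in the DNA upstream of several members, and 9 windows are printed: Ifit1, Rsad2, Oas1a, Bst2 and Igtp to show how ISRE cores are arranged, Oasl2 because it followed the other members most closely and holds no match, Psmb8 because it had the smallest unadjusted p between genotypes, and Irf1 and Irf8 because they stood apart. Each is the 250 bases before the RefSeq gene start in assembly GRCm38.p6, written on the strand of the gene. Capitals mark matches to the ISRE core (GAAA, any 2 bases, GAAA, or on the other strand TTTC, any 2 bases, TTTC) or to the GAS motif TTCNNNGAA, which reads the same on both strands.
Ifit1, chr19:34640639-34640888, plus strand: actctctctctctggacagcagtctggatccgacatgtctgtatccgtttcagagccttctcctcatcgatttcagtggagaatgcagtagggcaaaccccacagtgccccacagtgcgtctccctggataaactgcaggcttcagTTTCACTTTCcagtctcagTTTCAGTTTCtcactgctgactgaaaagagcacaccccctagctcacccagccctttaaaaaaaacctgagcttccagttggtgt
Rsad2, chr12:26456453-26456702, minus strand: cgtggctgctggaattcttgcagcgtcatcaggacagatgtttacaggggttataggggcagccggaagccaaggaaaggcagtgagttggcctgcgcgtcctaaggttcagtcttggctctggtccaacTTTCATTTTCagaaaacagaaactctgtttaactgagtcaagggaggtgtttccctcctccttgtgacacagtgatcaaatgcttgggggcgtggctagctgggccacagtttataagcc
Oas1a, chr5:120907526-120907775, minus strand: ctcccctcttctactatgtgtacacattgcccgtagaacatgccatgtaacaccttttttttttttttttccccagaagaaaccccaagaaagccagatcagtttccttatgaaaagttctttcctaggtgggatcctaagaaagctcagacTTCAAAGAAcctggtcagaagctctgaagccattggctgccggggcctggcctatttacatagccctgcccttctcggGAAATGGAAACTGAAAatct
Bst2, chr8:71537473-71537722, minus strand: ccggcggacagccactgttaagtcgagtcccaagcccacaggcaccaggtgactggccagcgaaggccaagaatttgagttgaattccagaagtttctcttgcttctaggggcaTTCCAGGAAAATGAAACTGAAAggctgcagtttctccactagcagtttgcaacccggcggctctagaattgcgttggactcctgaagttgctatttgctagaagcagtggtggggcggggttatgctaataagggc
Igtp, chr11:58199306-58199555, plus strand: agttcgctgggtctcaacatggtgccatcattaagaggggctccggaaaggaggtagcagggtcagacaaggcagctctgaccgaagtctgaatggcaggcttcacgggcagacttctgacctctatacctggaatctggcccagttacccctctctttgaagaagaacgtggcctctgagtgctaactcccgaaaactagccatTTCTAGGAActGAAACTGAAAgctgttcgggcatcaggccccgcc
Oasl2, chr5:114896684-114896933, plus strand: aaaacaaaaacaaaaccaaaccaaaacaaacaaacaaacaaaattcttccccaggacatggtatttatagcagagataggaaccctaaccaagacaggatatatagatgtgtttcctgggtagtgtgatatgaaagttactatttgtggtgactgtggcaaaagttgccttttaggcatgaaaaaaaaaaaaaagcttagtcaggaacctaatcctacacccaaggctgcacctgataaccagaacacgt
Psmb8, chr17:34197945-34198194, plus strand: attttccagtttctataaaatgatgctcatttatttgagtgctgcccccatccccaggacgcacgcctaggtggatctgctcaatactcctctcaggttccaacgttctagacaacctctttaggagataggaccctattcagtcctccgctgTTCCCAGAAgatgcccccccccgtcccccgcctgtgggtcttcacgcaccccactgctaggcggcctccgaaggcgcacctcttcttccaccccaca
Irf1, chr11:53769764-53770013, plus strand: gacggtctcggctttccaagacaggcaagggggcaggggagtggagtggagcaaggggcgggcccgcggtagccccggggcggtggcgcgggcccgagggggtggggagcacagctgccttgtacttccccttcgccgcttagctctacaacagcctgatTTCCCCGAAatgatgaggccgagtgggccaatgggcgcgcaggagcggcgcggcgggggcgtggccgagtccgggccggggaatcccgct
Irf8, chr8:120736108-120736357, plus strand: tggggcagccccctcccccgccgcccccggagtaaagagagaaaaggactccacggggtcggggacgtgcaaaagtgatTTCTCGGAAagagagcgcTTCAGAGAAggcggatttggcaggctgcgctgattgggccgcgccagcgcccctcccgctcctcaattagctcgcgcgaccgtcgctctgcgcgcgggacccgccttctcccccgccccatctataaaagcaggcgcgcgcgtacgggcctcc
Ifit1 carried ISRE cores that began 104 and 85 bases before its start, and Rsad2 a single one at 120 bases. In Oas1a and in Bst2 a pair of overlapping ISRE cores formed a single run, at 20 and 14 bases before the start in Oas1a and at 130 and 124 bases in Bst2, where a GAS match at 136 bases ran into it. Igtp held a GAS match at 45 bases and an ISRE core at 34 bases. Oas1a held a further GAS match at 98 bases. The windows of Oasl2 and of the closely following members Irf7 and Oasl1 held no match. Psmb8, Irf1 and Irf8 held GAS matches only, at 97 bases in Psmb8, at 90 in Irf1 and at 171 and 153 in Irf8. Irf1 and Irf8 each have another RefSeq start, whose window held no match. A promoter was found in the table for 32 of the 41 members, the 4 without expression values included. An ISRE core lay in 13 of these (40.6%), Isg15 among them, against 3.5% of the 27025 genes in the table. A GAS match lay in 7 (21.9%), against 8.1% of all genes. A match describes the letters in this window and does not show that a factor bound there.

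Expression is given as log2(value + 5) of the values deposited by the authors, on which the filter lies at 6.31. Among the antiviral effectors, Ifit1, which binds viral RNA and blocks its translation, ran from 4.41 through a median of 5.95 to 8.93 in wild-type tumours. Among E2F1 null tumours the lowest, median and highest Ifit1 values were 4.41, 5.81 and 8.49. E2F2 null tumours held 4.46, 7.13 and 11.05, and E2F3 heterozygous tumours 4.59, 6.49 and 9.57. The median of the E2F2 null tumours was the highest, but the ranges of all 4 genotypes overlapped between 4.59 and 8.49. The E2F2 null and E2F3 heterozygous ranges reached beyond the highest wild-type value. Rsad2 (viperin, an inhibitor of viral replication) reached 10.07 in wild type, 10.05 with E2F1 absent, 12.28 with E2F2 absent and 11.61 in E2F3 heterozygotes, from lowest values between 5.56 and 5.89 and medians of 7.48, 6.86, 7.75 and 7.45. Its highest tumour was thus again E2F2 null.

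The same held for the oligoadenylate synthetase family, whose active members make the second messenger that switches on RNase L. Oasl2 had medians of 6.55 in wild type, 6.46 with E2F1 absent, 7.28 with E2F2 absent and 7.11 in E2F3 heterozygotes, and its highest values were 10.12, 8.85, 11.42 and 9.93 in that order. Oas2 spanned 3.95 to 9.20 in wild type, 4.76 to 8.02 with E2F1 absent, 4.25 to 10.68 with E2F2 absent and 4.96 to 9.02 in E2F3 heterozygotes. Both genes were lowest at the top of their range in E2F1 null tumours. Usp18, which removes Isg15 from proteins and dampens the type I receptor, had medians of 6.06, 6.12, 7.22 and 6.64 in the same order, with highest values of 9.66, 8.19, 11.59 and 10.53. Rtp4, an interferon-induced chaperone of membrane proteins, was above the filter in all 80 tumours and ranged over 5.68 log2 units, from 6.35 to 12.03, with both ends in E2F2 null tumours. Ifit3, Mx1 and Ifit2 covered 8.20, 7.34 and 6.75 log2 units. Mx1, a dynamin-like GTPase that blocks influenza virus, was above the filter in 22 of 80 tumours, so many of its low values lie near the floor of detection. Trim25, a ubiquitin ligase that activates RIG-I, varied least of all members, between 10.31 and 11.56.

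Among the regulatory factors Irf7, which amplifies type I interferon production, varied most. Its lowest, median and highest values were 4.69, 6.75 and 9.12 in wild type, 5.71, 6.65 and 8.63 with E2F1 absent, 5.39, 7.34 and 10.07 with E2F2 absent, and 5.66, 7.13 and 9.08 in E2F3 heterozygotes. Irf9 and Stat2, the DNA-binding and activating partners of the type I complex, had smaller SDs over the 80 tumours, 0.52 and 0.55 against 1.16 for Irf7. Stat2 was above the filter in 16 of 80 tumours, so its SD rests mostly on values below the filter. Irf1, which drives much of the gamma response, had an SD of 0.44. Irf8, a factor of macrophages, dendritic cells and B cells, had medians of 7.28, 7.10, 7.0 and 7.26, and its highest tumour, at 9.48, was wild type. Of the sensors, Ifih1 (MDA5, which detects long double-stranded RNA) ran from 5.98 to 10.43 over all tumours and Zbp1, which detects Z-form nucleic acid, from 3.46 to 10.28. Both were highest in the same E2F2 null tumour.

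Antigen processing genes moved over narrower ranges. Psmb8, a catalytic subunit of the immunoproteasome, had its lowest, median and highest values at 7.0, 9.02 and 9.99 in wild type. The E2F1 null tumours held 7.26, 8.29 and 10.89, the E2F2 null tumours 7.84, 9.63 and 11.60, and the E2F3 heterozygous tumours 7.48, 8.91 and 11.20. Psmb8 was thus shifted upward at its lowest value, its median and its highest value in E2F2 null tumours, with ranges that still overlapped. Psmb9, its partner subunit, had medians of 7.24, 7.28, 7.78 and 7.17, while Psmb10, the third such subunit, stayed between 7.89 and 10.05 with an SD of 0.39. Tap1 and Tap2, which form the peptide transporter, had SDs of 0.66 and 0.48, Tapbp (tapasin) 0.56 and B2m, the light chain of MHC class I, 0.58.

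The GTPases Iigp1, Gbp3, Igtp and Gbp2 had SDs of 1.37, 1.28, 1.27 and 1.19, close to those of the antiviral effectors, and Irgm1, a regulator of the same family, 0.91. Igtp had its lowest, median and highest values at 6.04, 7.27 and 9.09 in wild type, 6.05, 7.35 and 9.17 with E2F1 absent, 5.70, 8.02 and 12.69 with E2F2 absent, and 6.02, 7.37 and 11.28 in E2F3 heterozygotes. In wild-type and E2F1 null tumours Igtp covered nearly the same range, and the other genotypes reached higher. Cxcl9 and Cxcl10, ligands of the chemokine receptor Cxcr3 on T cells, were above the filter in only 14 and 18 of the 80 tumours. Cxcl9 reached 13.13 in an E2F2 null and 11.79 in an E2F3 heterozygous tumour, against highest values of 7.45 in wild type and 8.58 in E2F1 null tumours. With an SD of 2.13 it was the most variable member.

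**Figure D1:**
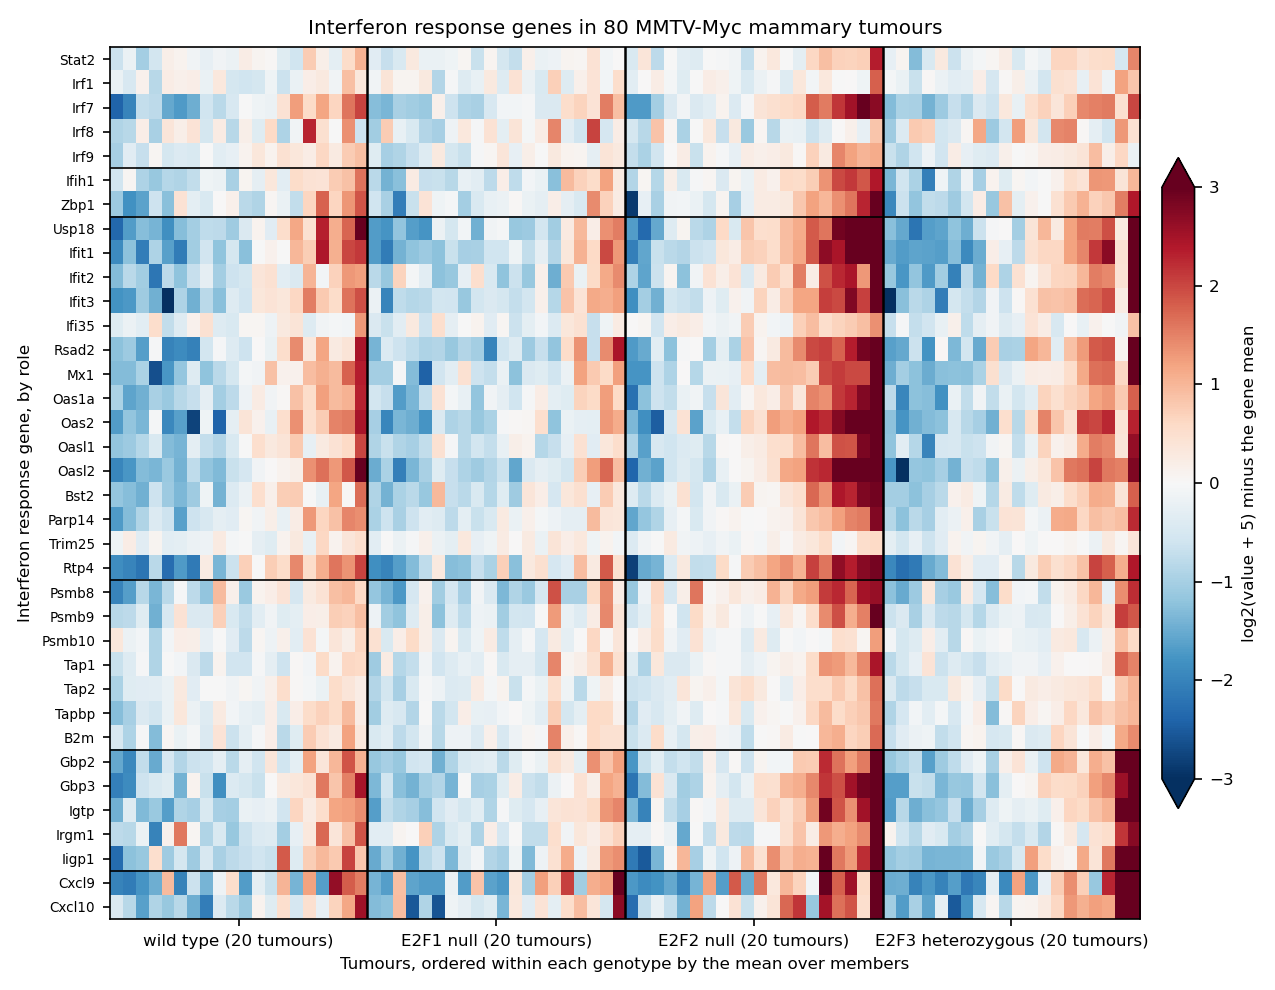
Each row is 1 of the 36 tested members, grouped by role, and each column 1 tumour, with genotypes separated by vertical lines and tumours ordered within a genotype by their mean over members. Colour is log2(value + 5) minus the mean of the gene over 80 tumours, limited to 3 either way. Most rows change together along each block, and Irf8, Irf1, Trim25 and Psmb10 change least or follow another order.

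Over all members the median SD was 1.08, against 0.36 over all tested genes, and 21 of the 36 exceeded 0.94, the 90th percentile of all genes. The extremes were shared. A single tumour, replicate 7 of the E2F2 null group, held the highest value of 31 of the 36 members. The mean over the 36 members, after subtracting each gene's own mean, was 3.29 in that tumour. It ran from −1.23 through a median of −0.41 to 1.45 in wild type, from −0.91 through −0.41 to 0.85 in E2F1 null, from −1.26 through 0.11 to 3.29 in E2F2 null, and from −1.10 through −0.16 to 2.37 in E2F3 heterozygous tumours. Tumours with a mean above 1 numbered 2, 0, 5 and 2 in the same order. Tumours with low means were therefore present in every genotype, and no genotype was separated from another. In whole tumours, a lower level can come from fewer cells that express a gene or from less RNA per cell, which these data cannot tell apart.

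Tumours that shared a label number could differ widely in this response. Of the 53 label numbers, 19 held several tumours (46 tumours in all). Within these the lowest and highest tumour differed by 0.14 to 3.66 in the mean over members, with a median of 0.78. The difference exceeded 1 in 7 of the 19. The 3 tumours of label number 3560 (E2F2 null) had means of −0.04, 3.29 and −0.37, so the highest tumour of the series stood beside tumours near the overall median. In label number 4031 (E2F3 heterozygous) the 3 means were 2.37, −0.91 and −0.61. Label number 4010 (E2F2 null) had 4 tumours at 1.79, 0.32, 0.91 and 1.52, all above 0 and 1.47 apart at most. The share of the variance within genotypes that lay between label numbers was −0.14 for the mean over members, and a negative estimate means that tumours of a label number resembled each other no more than tumours of different ones. Its median over the members was −0.08, ranging from −0.58 to 0.41, against 0.20 over all tested genes. Label numbers 3560 and 4031, with the widest ranges (3.66 and 3.28), enter these estimates, which were not computed without them.

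**Figure D2:**
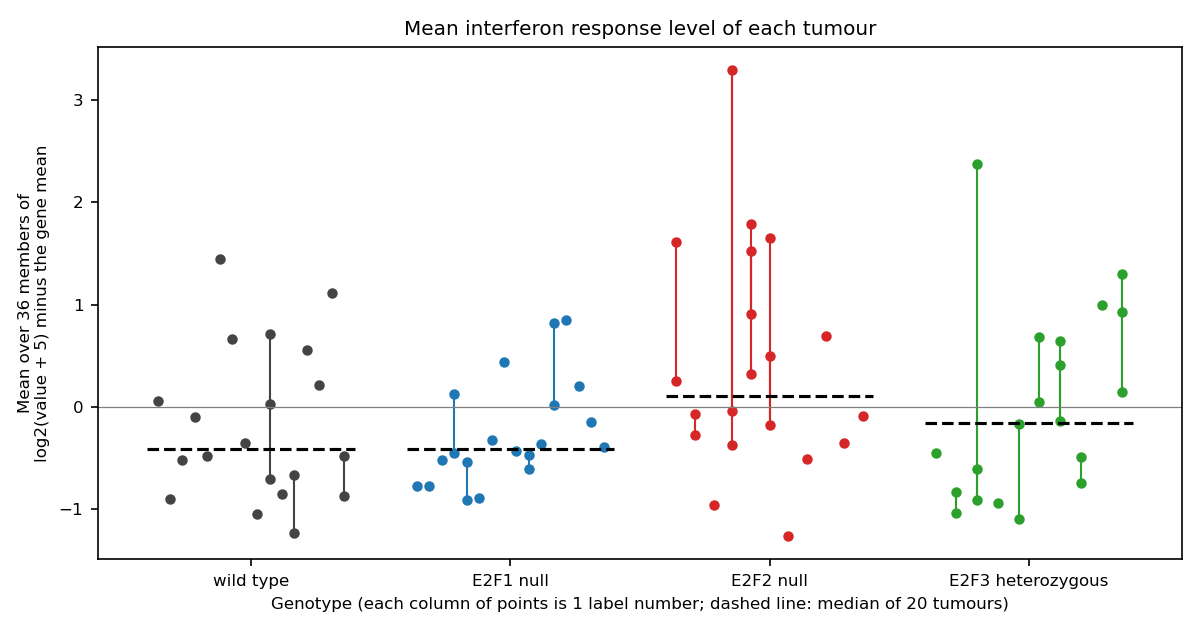
The mean over the 36 members (vertical axis, log2 scale, each gene centred on its own mean) is drawn for each of the 80 tumours by genotype. Points in 1 vertical line share a label number, and the dashed line is the genotype median. Label numbers 3560 and 4031 join the highest tumours of their genotypes to tumours at −0.37 and −0.91.

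The members rose and fell together from tumour to tumour. Pearson's r between pairs of members over the 80 tumours had a median of 0.70 over 630 pairs, and 81.9% exceeded 0.5, against 3.55% of the pairs of other tested genes. These values share arrays, scaling and tumour composition and are given as a description. The antiviral effectors had a median r of 0.85 over 105 pairs, beside 0.84 over 10 pairs of GTPases, 0.73 over 21 pairs of antigen processing genes and 0.39 over 10 pairs of regulatory factors. The single pairs of chemokines and of sensors had r of 0.83 and 0.71. Usp18 with Irf7 and Usp18 with Ifit1 reached 0.95. Between groups the medians were 0.78 for antiviral effectors with GTPases and 0.65 for antiviral effectors with antigen processing genes.

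Some members stood apart. The correlation of Irf8 with the mean of the other members was 0.23, against 0.95 for Oasl2, 0.94 for Ifit1, Gbp3 and Igtp, and 0.92 for Irf7. Irf8 correlated instead with the macrophage marker list (r = 0.82) and with the MHC class II list (r = 0.71), while the other members reached at most 0.47 and 0.52 with these lists. Psmb10, Irf1, Trim25 and Ifi35 had correlations of 0.47, 0.51, 0.59 and 0.60 with the other members, and the closest partner of both Irf1 and Psmb10 was Irgm1 (r = 0.75 and 0.68). Among the 28 tested members with a promoter in the table, the 12 with an ISRE core upstream had correlations with the remaining members between 0.72 and 0.94 (median 0.89), and the 16 without one between 0.23 and 0.95 (median 0.79). Irf1 and Irf8, whose printed windows hold GAS matches only, were in the second set. Repeat measurements of a member by another probe set above the filter existed for 8 members. These 10 probe sets correlated with the one used at a median r of 0.92. The lowest values were 0.21 for another probe set of Trim25 and 0.35 for another of Tapbp. That Trim25 probe set had an SD of 0.52, against 0.26 for the one used.

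**Figure D3:**
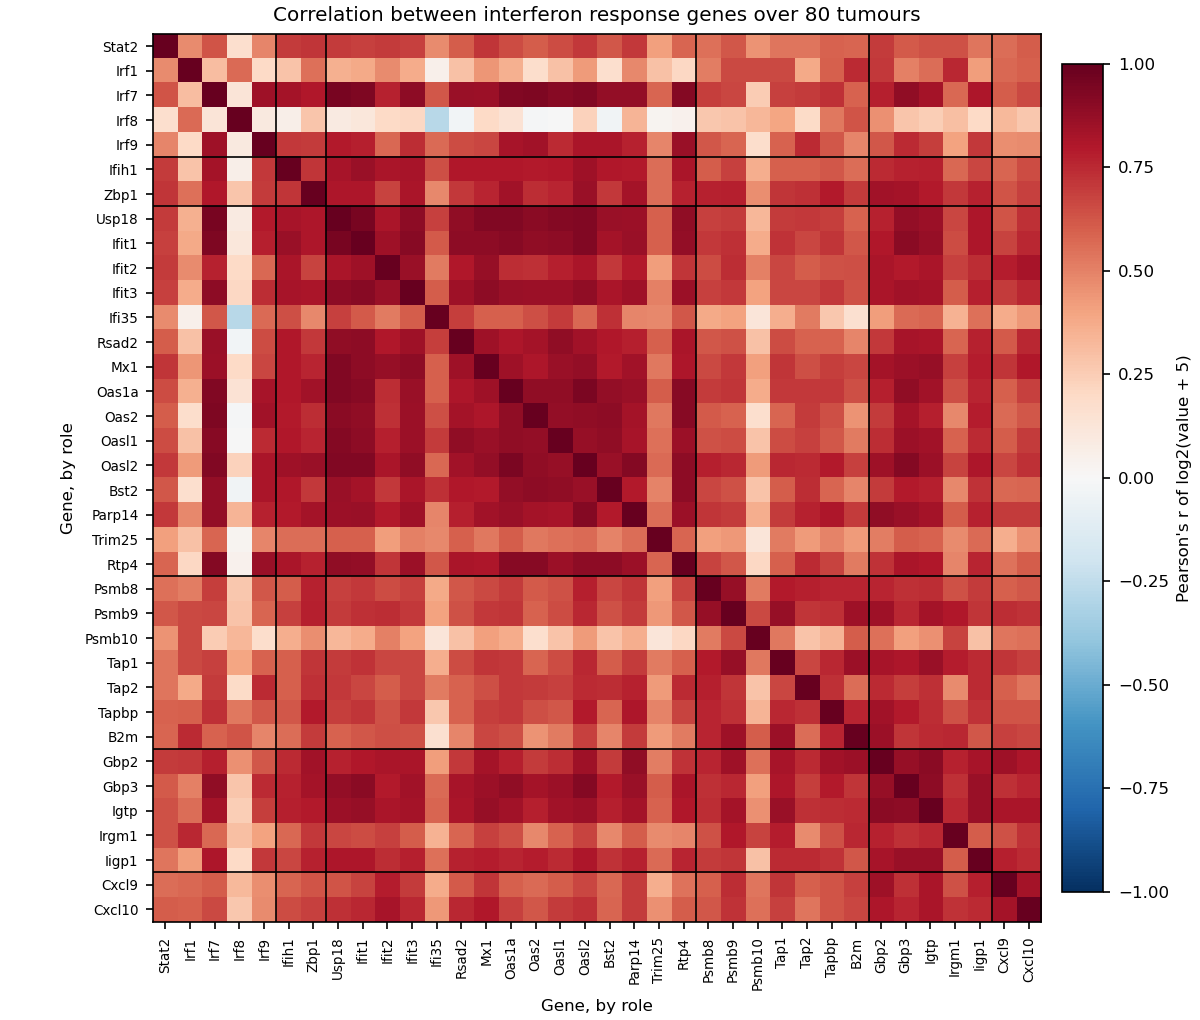
Pearson's r over 80 tumours is drawn for every pair of the 36 tested members, ordered by role, with black lines between roles. The block of antiviral effectors is nearly uniform, and pale stripes mark Irf8, Psmb10, Irf1, Ifi35 and Trim25.

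Genes outside the list followed it as closely as its own members. The 10 tested genes with the highest correlation with the mean over members were Irgm2 (r = 0.95), Parp12 (0.92), Lgals3bp (0.92), Ddx60 (0.90), Parp9 (0.88), Ifi47 (0.88), Gbp6 (0.85), Slfn8 (0.85), Gbp7 (0.85) and Lgals9 (0.84), over 80 tumours. Irgm2, Ifi47, Gbp6 and Gbp7 belong to the same GTPase families as Igtp and Gbp2. Ddx60 is an antiviral helicase, Parp9 and Parp12 belong to the ADP-ribosyltransferase family of the member Parp14, and Lgals3bp and Lgals9 are a galectin-binding protein and a galectin.

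The genotype question was whether loss of E2F1, loss of E2F2 or loss of a copy of E2F3 altered these genes in Myc tumours. Differences were tested gene by gene with limma over all 8769 genes, with Benjamini-Hochberg adjusted p-values and a threshold of 0.05. None of the 36 members passed in any of the 6 comparisons between genotypes or in the F test over the 4 genotypes. Over all genes, 0.0456% passed between E2F1 null and wild type, 0.0228% between E2F2 null and wild type, 0% between E2F3 heterozygous and wild type, and 0.148% in the F test. At an unadjusted p under 0.05 the F test picked out 4 members (Psmb8, Ifi35, Bst2 and Tap2), against 4.24% of all genes. Tumours of a genotype differed widely. Ifit1 had an SD of 1.41 (n = 20) in wild type and 1.74 (n = 20) in E2F2 null tumours around means of 6.26 and 7.26.

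E2F2 null tumours had the highest median for 31 of the 36 members and the highest SD for 31. The shares of all tested genes with their highest median or SD in this group are not given here. These SDs include replicate 7, which held the highest value of 31 members. Against wild type, 35 of the 36 estimates were above 0, where 46.3% of all tested genes were. The median of the members' estimates was 0.56 on the log2 scale, beside −0.01 over all tested genes. Because the members move together, these estimates are not independent of each other. At an unadjusted p under 0.05, 4 members were higher, against 2.18% of all genes. Psmb8 differed by 1.03 (SE 0.32, unadjusted p = 0.00179, limma adjusted p = 0.726), with plain means of 9.82 and 8.72. Fitted differences can depart from those of the means because the block weights tumours of a shared label number less. Bst2 (tetherin, which holds virions at the cell surface) differed by 0.80 (SE 0.31), Psmb9 by 0.59 (SE 0.26) and Ifi35 by 0.30 (SE 0.15). By role the median difference was 0.72 for antiviral effectors, 0.77 for chemokines, 0.61 for GTPases, 0.44 for sensors, 0.23 for antigen processing genes and 0.12 for regulatory factors. Irf8 was the only member with an estimate below 0, at −0.23 (not past the threshold).

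A few tumours carried much of that median. Without the 4 tumours of label number 4010 it was 0.36, with 1 member higher at an unadjusted p under 0.05 (2.01% of all genes). Without replicate 7 of the E2F2 null group it was likewise 0.36, with 2 such members (2.89% of all genes). With 1 mean per label number, which gives the 4 tumours of label number 4010 the weight of a single one, it was 0.19. With no block for the label number it was 0.65, with 15 members higher at an unadjusted p under 0.05 (2.71% of all genes).

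E2F1 null and E2F2 null tumours were farthest apart. Of the 36 members, 35 were lower in E2F1 null tumours, with a median difference of −0.65, beside 0.02 over all genes, of which 56.1% were higher. At an unadjusted p under 0.05, 14 were lower, against 3.58% of all genes, and none passed the adjusted threshold, which 0.16% of all genes did. Psmb8 came nearest, with means of 8.51 in E2F1 null and 9.82 in E2F2 null tumours and a difference of −1.26 (SE 0.32, limma adjusted p = 0.0984). It passed when the label number block was left out (adjusted p = 0.0226) and when label number 3979 or 4015 was left out (adjusted p = 0.00922 and 0.0292). Its adjusted p was 0.557 without label number 4010, 0.365 with 1 mean per label number, 0.368 with the chromosome 6 level described further on and 0.176 without replicate 7 of the E2F2 null group. Ifi35 differed by −0.43 (SE 0.15), Tap2 by −0.44 (SE 0.15), Bst2 by −0.89 (SE 0.31) and Psmb9 by −0.68 (SE 0.26), and the other 9 members included Ifit1 (−1.07), Usp18 and Oas2 (−1.06 each) and Oasl2 (−1.02). Without label number 4010 the median was −0.41, with 5 members lower at an unadjusted p under 0.05 (2.43% of all genes), and without replicate 7 of the E2F2 null group it was −0.47, with 6 (4.22%). With 1 mean per label number it was −0.36.

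The other comparisons gave smaller medians. E2F1 null against wild type gave −0.11, with 10 of 36 members higher, where 53.3% of all genes were. E2F3 heterozygous against wild type gave 0.14, with 30 of 36 members higher, where 53.1% of all genes were. In either, 0 members had an unadjusted p under 0.05. At that level 0.73% and 0.456% of all genes were higher and 0.547% and 0.205% lower. With 1 mean per label number the E2F3 heterozygous median was 0.02, with 20 of 36 members higher. These comparisons share the wild-type tumours with each other and with the E2F2 null comparison. E2F2 null against E2F3 heterozygous tumours gave 0.40, with Psmb8 (0.93), Ifi35 (0.44) and Psmb9 (0.54) at an unadjusted p under 0.05, against 2.43% of all genes called higher and 5.06% called lower at that level and 0.0342% at the adjusted threshold. That median was 0.20 without label number 4010, 0.19 without replicate 7 of the E2F2 null group and 0.15 with 1 mean per label number. E2F1 null against E2F3 heterozygous tumours gave −0.27, with 0 such members, where 1.44% of all genes were higher and 1.97% lower at that level and 0.0798% passed the adjusted threshold. The 95% interval of Ifit1 ran from −0.14 to 1.81 for E2F2 null against wild type and from −1.18 to 0.71 for E2F1 null against wild type, so at this spread the sign of either difference was not determined.

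**Figure D4:**
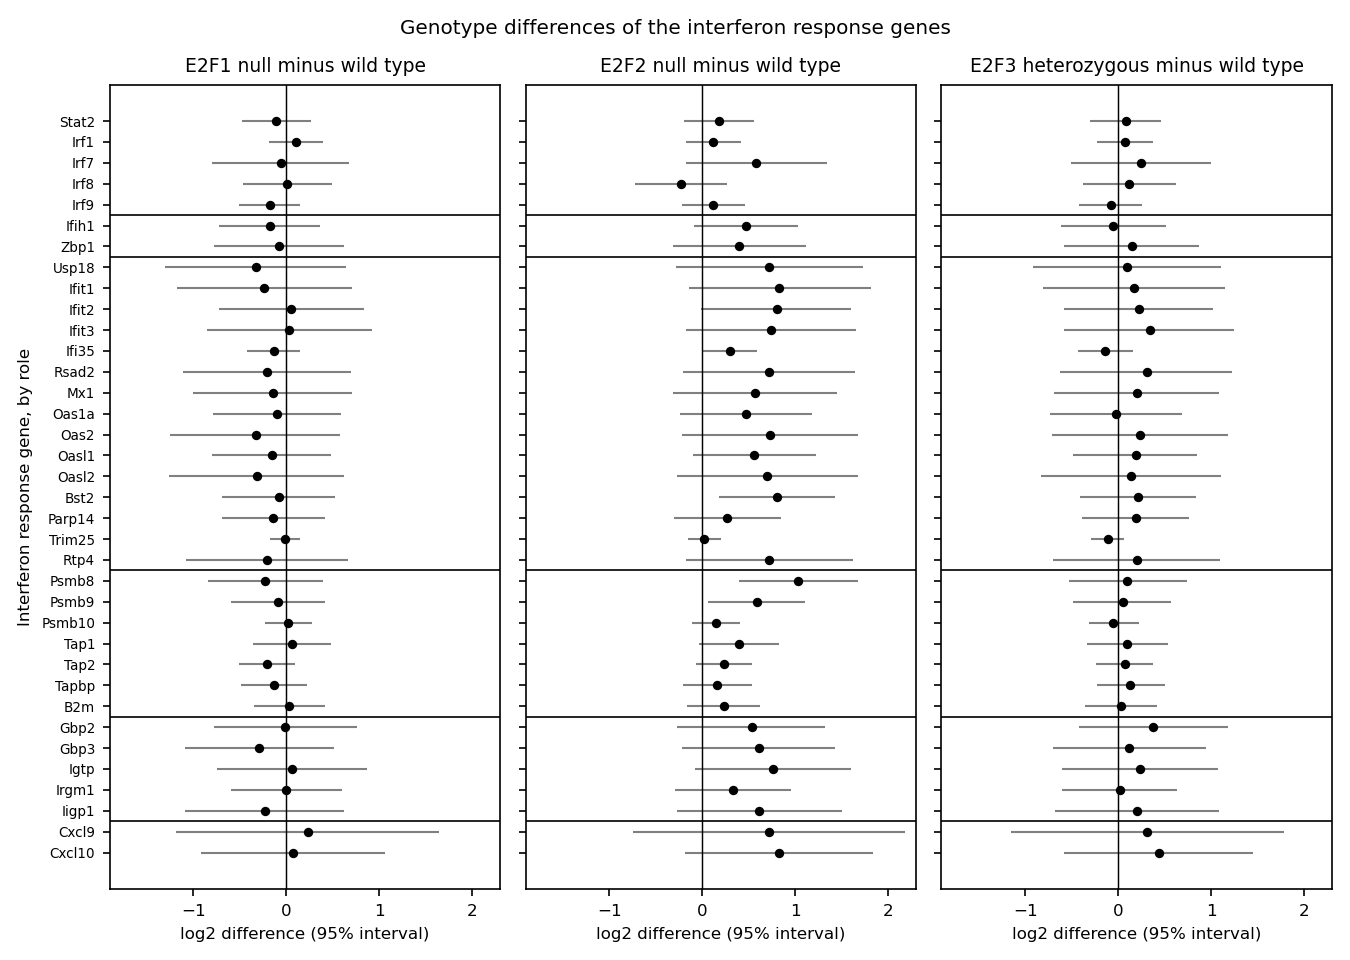
Points are log2 differences of the 36 tested members from wild type (horizontal axis), with 1 panel each for the E2F1 null, the E2F2 null and the E2F3 heterozygous group, with 95% intervals from limma. In E2F2 null tumours 35 of 36 points lie above 0, most intervals include 0, and the farthest point is Psmb8 at 1.03.

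The pathway above these genes was examined through lists of its other parts. Of the 11 interferon ligand genes listed, 6 had a named probe set and none passed the filter. Ifnb1, Ifng, Ifna1, Ifna4 and Ifna11 were above the filter value in 0 tumours and Ifna2 in 1, so their levels could not be compared. The 8 tested receptors and kinases were detected in nearly all tumours but followed the members weakly. Ifnar1, Ifnar2, Ifngr1, Jak1, Jak2 and Tyk2 were above the filter in all 80 tumours and correlated with the mean over members at 0.12, 0.30, 0.34, 0.28, 0.19 and 0.06. Ifngr2, above the filter in 77 tumours, and Il10rb, above it in all 80, had r of 0.15 and −0.05. None of the 8 tested receptor and kinase genes passed the adjusted threshold in a comparison. Jak2 and Tyk2 were lower in E2F2 null than in wild-type tumours at an unadjusted p under 0.05, by estimates of −0.35 (SE 0.13) and −0.19 (SE 0.07), against 3.96% of all genes. Both were also higher in E2F1 null than in E2F2 null tumours at that level, as were Jak1 and Ifnar1, by 0.36, 0.18, 0.27 and 0.21, against 6% of all genes. Against E2F3 heterozygous tumours, Jak2 and Tyk2 in E2F2 null tumours differed by −0.32 and −0.16, where 5.06% of all genes were lower at that level.

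Among the other factors and the inhibitors of the pathway, 9 of 13 were tested and none passed in a comparison. Irf3, which starts transcription of interferon beta, had an r of −0.35 with the mean over members and a difference of −0.20 (SE 0.06, unadjusted p = 0.0018, limma adjusted p = 0.726) between E2F2 null and wild-type tumours. It differed by 0.17 between E2F1 null and E2F2 null and by −0.17 between E2F2 null and E2F3 heterozygous tumours, where Ptpn11, a phosphatase, differed by −0.14, all at an unadjusted p under 0.05. At that level 3.96% of all genes were lower in E2F2 null than in wild-type tumours. Between E2F1 null and E2F2 null tumours 6% were higher, and between E2F2 null and E2F3 heterozygous tumours 5.06% were lower. Socs3, Irf2 and Stat3 had r of 0.33, 0.34 and 0.29. Some nucleic acid sensing genes followed the members more closely. Dhx58 (LGP2) had an r of 0.80, Adar, which edits double-stranded RNA, 0.76, Eif2ak2 (PKR) 0.67 and Tlr3 0.62. The other tested genes of this list were below 0.5: Samhd1 0.48, Myd88 0.42, Tlr4 0.36, Sting1 0.32, Ikbke 0.16, Tbk1 0.10 and Mavs −0.02. Of the 11 tested sensing genes, 0 passed the adjusted threshold in any comparison, and 5 had an unadjusted p under 0.05 between E2F1 null and E2F2 null tumours (Adar, Eif2ak2, Myd88 and Tlr4 lower, Ikbke higher in E2F1 null). Over all genes, 3.58% were lower and 6% higher in E2F1 null tumours at that level. Ikbke also differed by −0.65 between E2F2 null and E2F3 heterozygous tumours and Tlr4 by −0.43 between E2F1 null and E2F3 heterozygous tumours at that level. In these comparisons 5.06% and 1.97% of all genes were lower. In the MHC class I list, H2-K1 and H2-D1, the classical heavy chains, had r of 0.77 and 0.75 with the members, and Erap1, which trims peptides, and Psme1, a proteasome activator, had 0.52 and 0.53. The general chaperones Calr, Canx and Pdia3 had 0.09, −0.01 and −0.01. None of the 8 tested class I genes passed in a comparison. Erap1 alone had an unadjusted p under 0.05, with −0.26 between E2F1 null and E2F2 null and 0.25 between E2F2 null and E2F3 heterozygous tumours. Of all genes, 3.58% were lower in the first and 2.43% higher in the second comparison at that level.

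Markers of infiltrating cells were set beside the members, because the tumours were analysed whole. Of 18 T and NK cell markers, 17 had a named probe set and 2 were tested. The defining genes Cd3d, Cd3e, Cd247, Cd4 and Cd8a were above the filter in 0 tumours. The list had an r of 0.59 and a rho of 0.59 with the mean over members (n = 80), the highest among the cell marker lists for which it was computed. This r was 0.56 without the 2 tumours farthest from the median of the list and ran from 0.50 to 0.73 within genotypes. Of the 2 tested, Ccl5, a chemokine also made by other cells, had an r of 0.60 with the mean over members and Thy1 0.09. The named markers that did not pass the filter had r from 0.05 (Cd3e) to 0.39 (Klrk1), so Ccl5 alone reached the r of the list. All 12 macrophage markers were tested, and their summed value ranged from 5427.8 to 44449.3 in wild type, 7031.8 to 39640.7 with E2F1 absent, 8246.3 to 20548.4 with E2F2 absent and 7405.3 to 40362.4 in E2F3 heterozygotes. The medians of this sum were 14966.6, 14835.8, 13048.0 and 17384.4 in the same order, and the ranges overlapped. The macrophage list had an r of 0.26 and a Spearman rho of 0.27 with the mean over members (n = 80), or 0.24 without the 2 tumours farthest from its median. The single macrophage marker above 0.5 was Fcgr1, a high-affinity IgG receptor, with 0.57. The fibroblast (8 of 8 tested), endothelial (7 of 7), neutrophil (7 of 9) and MHC class II (4 of 7) lists had r of 0.20, 0.10, 0.20 and 0.22, and the mammary epithelium list (11 of 11) 0.37. For B and plasma cells, 2 of 8 markers were tested, with an r of 0.09. Of 5 plasmacytoid dendritic cell markers, 3 had a named probe set and only Cox6a2, a gene also known from muscle, was tested, with an r of 0.04. The part of these cells in the members' variation was not tested. The array measures themselves had r of 0.23 (median log2 value of an array), −0.10 (Gapdh 3′ to 5′ ratio) and −0.29 (actin 3′ to 5′ ratio) with the mean over members.

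The genes most opposed to the members led to a further comparison, chosen after these values were seen. Of the 20 tested genes with the most negative correlation with the mean over members (r from −0.65 to −0.55), 17 lie on chromosome 6, which holds 5.24% of the tested genes. Not every gene of chromosome 6 ran this way. Parp12 (r = 0.92 with the mean over members) and the member Usp18 (r = 0.93 with the other members) also lie on it. The 3 most negative were Mogs, Tnpo3 and Mrps25. A chromosome 6 level was therefore computed for each tumour as the median over 458 tested genes of that chromosome of log2(value + 5) minus the gene median, with members left out. The levels fell into separate ranges, with no tumour between 0.13 and 0.22. A level above 0.2 was found in 27 tumours, of which 10 were wild type, 9 E2F1 null, 3 E2F2 null and 5 E2F3 heterozygous. Each gene outside the chromosome was then fitted on this level together with genotype and the label number block, and the same was done for each of the 20 chromosomes.

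Higher chromosome 6 levels went with lower interferon response genes. Of 35 members (Usp18 lies on chromosome 6 and was left out), 24 were lower and 0 higher at an adjusted p under 0.05, against 14.7% of all genes called lower and 18.5% called higher. With adjustment over all 20 fits 23 remained past the threshold, a count given without the share of all genes. Over the span from the 10th to the 90th percentile of the level, 0.47 log2 units, the median change of the members was −0.98, beside 0.01 over all genes. Rtp4 changed most, by −2.25 (SE 0.28, limma adjusted p = 1.04e-08, or 8.34e-08 over all 20 fits), a 4.76-fold lower value. Oas2 changed by −1.64 (SE 0.35), Ifit1 by −1.58 (SE 0.37), Ifit3 by −1.57 (SE 0.34) and Irf7 by −1.37 (SE 0.28). Because this chromosome was singled out by its correlation with the same members in the same tumours, these p-values are not independent evidence.

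By role, lower values were called for 13 of 14 antiviral effectors, 4 of 5 GTPases, 2 of 2 sensors, 3 of 7 antigen processing genes, 2 of 5 regulatory factors and 0 of 2 chemokines. The median changes were −1.30, −1.14, −0.91, −0.40, −0.28 and −1.12 in the same order, so the chemokines had estimates close to those of the GTPases with larger errors. Whether the roles differ was not tested. Irf1, Irf8, Psmb10 and Irgm1 had estimates of 0.08 (SE 0.13), −0.05 (SE 0.21), 0.04 (SE 0.11) and −0.07 (SE 0.26), none past the threshold. Cxcl9 had an estimate of −1.41, but with an SE of 0.60 and an adjusted p of 0.0607. Of the other chromosomes, only chromosome 1 gave more than 3 members in a direction at the adjusted threshold within its own fit. There 21 of 36 members were higher, against 23.2% of all genes, with 14 past the threshold over all 20 fits, and the level spanned 0.10 log2 units. With adjustment over all 20 fits, chromosome 14 gave 9 members lower, where its own fit gave 2 and 16 of 8468 genes. The shares of all genes under the adjustment over all 20 fits are not given here. The member counts under it therefore cannot be read against a background.

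Within the separate ranges the relation was weak. Pearson's r between the level and the mean over members was −0.26 over the 27 tumours above 0.2 and −0.09 over the 53 at or below it (Spearman rho −0.12 and −0.04), and −0.28 and −0.17 without the 2 tumours farthest from the median level of each. The slopes therefore rest mainly on the step between the ranges. The counts did not rest on 1 genotype or on the highest tumour: 18 members were lower without the E2F2 null tumours (11.7% of all genes), 26 without the wild-type tumours (8.05%), 23 without E2F1 null (12%), 20 without E2F3 heterozygous (14%) and 24 without replicate 7 of the E2F2 null group (15.4%). In label number 4031 the tumour with a mean over members of 2.37 had a chromosome 6 level of −0.20, and its companions at −0.91 and −0.61 had levels of 0.25 and −0.10. In label number 3560 the tumour at 3.29 had a level of −0.18, and those at −0.04 and −0.37 had −0.20 and 0.23. Of the 7 label numbers with tumours in both ranges, the tumours above 0.2 had the lower mean over members in 5. The other 2 ran the opposite way: label number 4112 had −0.87 at a level of −0.18 and −0.48 at 0.24, and label number 3976 had −0.61 at −0.14 and −0.47 at 0.30. Of the 27 tumours above 0.2, 3 had a mean over members above 0, the highest being wild-type replicate 3 at 1.45. Among the 53 others, 30 had a mean above 0.

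With the chromosome 6 level added to the genotype fit, the median member difference between E2F2 null and wild-type tumours was 0.20 in place of 0.56, with 32 of 36 members higher and 1 of them at an unadjusted p under 0.05. Over all genes, 3.93% were higher at that level in place of 2.18%. Between E2F1 null and E2F2 null tumours it was −0.32 in place of −0.65, with 5 members lower at an unadjusted p under 0.05 in place of 14. Over all genes, 3.25% were lower at that level in place of 3.58%. Usp18, which lies on chromosome 6, was left out of the slopes but included in these genotype fits and in the mean over members. The part of the chromosome 6 level in the genotype differences was otherwise not tested.

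**Figure D5:**
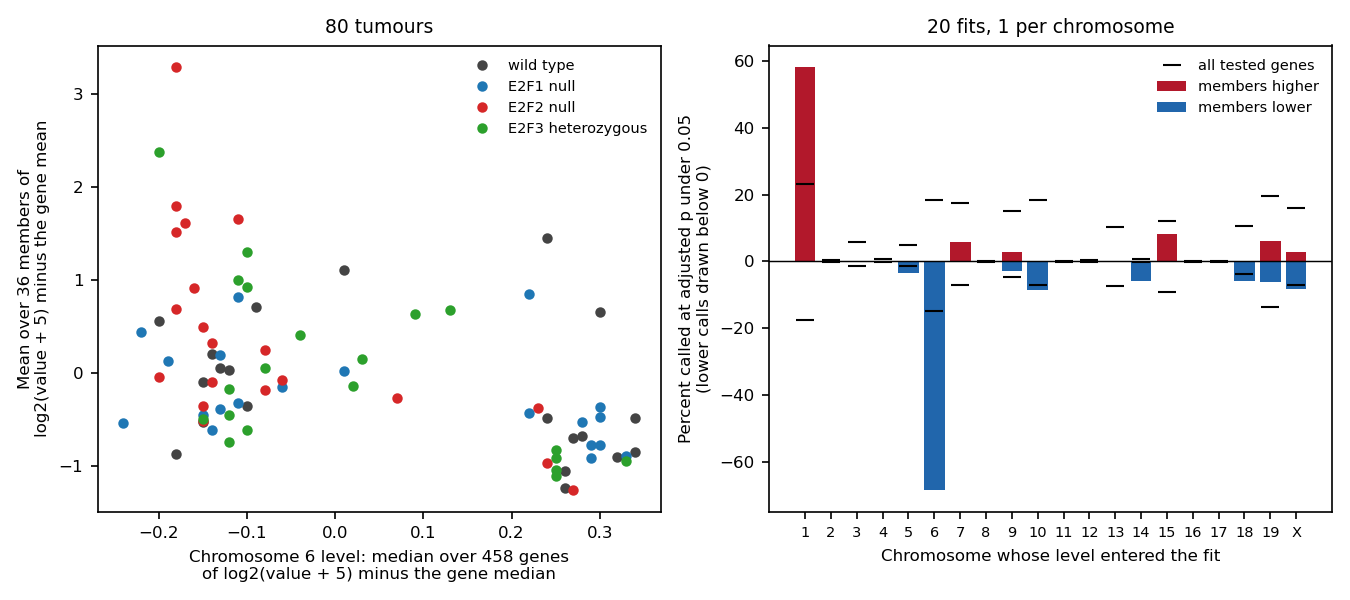
Left, the chromosome 6 level of each of 80 tumours (horizontal axis, log2 units) against its mean over the 36 members (vertical axis), coloured by genotype. Right, the percent of members called higher (upward bars) or lower (downward bars) with the level of each chromosome, with short black lines for all tested genes. Chromosome 6 has the longest downward bar, 24 of 35 members against 14.7% of genes.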

How the data were processed

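The series table of 80 arrays holds intensity values (MAS5 signals on a linear scale) as the authors deposited them. MAS5 and Affymetrix Expression Console are named in the submitters' processing notes. The trimmed mean of every array was 500.2 (2% trimmed at each end), which leaves total depth without meaning, and the number of arrays limits the precision. Probe sets with 1 gene symbol (20380 of 22626) were kept, 691 had several and 1555 none. Values were taken as log2(value + 5), so fold changes of low genes are understated. Genes were tested with limma 3.58.1 in R 4.3.3 (lmFit, duplicateCorrelation on the label number with a consensus correlation of 0.159, eBayes with trend and robust options), two-sided, with Benjamini-Hochberg adjustment over 8769 genes. The genotype fit and the chromosome level fit were tested on simulated data. Figures and descriptions used Python 3.11.15. Whether tumours of a label number are separate animals is not given, and p-values set each difference against the spread between these samples. The consensus correlation was applied to every gene, whereas the median share between label numbers over the members was −0.08. The members and lists were chosen with earlier results of these data known. All members may be named. Those described in each genotype were chosen from the members with the largest SD in a role, the smallest SD in a role, or an unadjusted p under 0.05 in a comparison. Outside genes were the 10 with the highest correlation with the mean over members, and pathway genes those with an unadjusted p under 0.05 or a correlation above 0.5 in size, with further pathway genes named beside them after their values were seen. The chromosome fits, the fits without replicate 7 of the E2F2 null group and the split by motif were added after the data were seen. RefSeq promoters are from GRCm38.p6.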

Additional observations from a re-analysis of the deposited data

How the results depend on the processing

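The direction of the median member difference between E2F2 null and wild-type tumours was the same under every alternative run (pseudocount 1 or 50, no filter, quantile normalisation, no label number block, 1 mean per label number, no trend or robust option, every probe set on its own, mean of the detected probe sets, and left-out tumours), and its value lay between 0.19 and 0.66. The median between E2F1 null and E2F2 null tumours lay between −0.74 and −0.36 in fits without the chromosome 6 level. The number of members past the adjusted threshold was 0 in all comparisons and alternatives, except between E2F1 null and E2F2 null tumours, where it was 1 (Psmb8) with no label number block and 0 to 1 over 53 fits that each left out a label number. The cause was not tested. Leaving out each label number moved the median of E2F1 null against wild type between −0.17 and −0.03 and that of E2F3 heterozygous against wild type between 0.01 (without 4472) and 0.27 (without 3551). The SD of the mean over members was 0.88, and 0.70 with a pseudocount of 50. Its share between label numbers stayed below 0, from −0.28 to −0.12. Within single genotypes the correlation of the mean over members with the B and plasma cell list ran from −0.32 to 0.40, and with the endothelial list from −0.04 to 0.29. The highest such correlations were 0.48 for macrophage (0.26 over all tumours), 0.51 for neutrophil (0.20) and 0.51 for receptor and kinase lists (0.30), and the lowest for the sensing list was 0.55 (0.82). No paired analysis was possible because no label number occurs in more than 1 genotype. Many low values of Mx1, Cxcl9 and Cxcl10 lie below the filter and limit their fold changes.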
